A study of Danio rerio with 6 samples.

Results

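The proteasome subunit genes of zebrafish were followed in gonads of wild-type and *eif4e1b* mutant juveniles. Members were all genes whose symbol starts with *psma*, *psmb*, *psmc* or *psmd* and a digit, apart from 1 inducible beta gene and *psmc3ip*, which the rule leaves out. This gave 47 of the 32520 genes counted, of which 23 belong to the core particle and 24 to the regulatory particle or its assembly. All fish carried the transgene tg(ziwi:GFP), in which the promoter of *ziwi* (*piwil1*) drives green fluorescent protein in germ cells, and they were either *eif4e1b* +/+ or *eif4e1b* -/-. Each genotype had 3 samples of 3 pooled gonads, taken from juvenile siblings with high fluorescence, and every sample was labelled ovary and female. The age of the fish is not in the labels. The mutation is a short frameshifting deletion, the study made alleles with different deletions, and the labels do not say which of them these fish carried. *eif4e1b* encodes a relative of the cap-binding translation factor eIF4E that is made in female germ cells and early embryos.

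The proteasome is the large protease that degrades proteins marked with ubiquitin. Its core particle is a barrel with outer rings of alpha subunits, which gate the entrance, and inner rings of beta subunits, a few of which carry the active sites. Its regulatory particle binds the end of the barrel: a ring of ATPases unfolds the substrate, scaffold and receptor subunits bind ubiquitin, and a lid removes the ubiquitin chain. Inducible beta subunits take the place of the constitutive catalytic ones in immune cells and under interferon, and they are known for cutting peptides for presentation by class I molecules. In germ cells the proteasome is known for the destruction of cyclins and of maternal proteins during meiosis and egg activation.

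Total counts were 11771342 to 13362230 in wild-type samples and 5539470 to 8233080 in mutant samples. *eif4e1b* itself had 1391, 1116 and 1386 counts in wild-type replicates 1 to 3, and the mutant replicates 1 to 3 held 55, 9 and 24, although a short deletion leaves most of the gene to be counted. Oocyte markers bore out the label ovary in wild-type samples and were much reduced, but not absent, in mutant samples. Their summed level was 10829 to 13539 TMM-CPM in wild-type and 38.3 to 370 in mutant samples. In mutants 13 of 13 were lower, and none was at 0 counts in any sample. TMM-CPM are CPM (counts scaled to a common library size) after the trimmed-mean scaling of edgeR, the scale of every level below, and since transcript lengths were not used, levels are compared between samples and not between genes. The sums of some other marker lists also separated the genotypes. By edgeR at an adjusted p under 0.05, 32% of all tested genes were lower and 37.5% higher in mutants. Each count of higher or lower markers here stands beside these shares. Ovarian somatic markers summed to 24.8 to 29.4 in wild-type and to 85.5 to 102 in mutant samples (4 of 7 tested higher, 1 lower). Skeletal muscle markers summed to 78.6 to 146 and to 378 to 1092 (11 of 14 tested higher, 1 lower). Skin markers summed to 23.9 to 79.01 and to 679 to 1355 (3 of 5 tested higher). Meiotic prophase markers summed to 85.98 to 375 and to 399 to 1651 (5 of 9 higher). The red blood cell sum was higher too (3 of 4 tested). The sums of germ cell markers of either sex (1610 to 2465 in wild-type, 1483 to 3373 in mutant samples) and of spermatid and sperm markers (28.1 to 60.6 and 30.3 to 80.4) overlapped. Of the genes in them, 1 of 8 germ cell markers was higher and 3 were lower. Of 7 tested spermatid and sperm markers, 4 were higher and 1 was lower, and *TSSK6* was at 0 counts in every wild-type sample. Exocrine pancreas markers summed to 95.8 to 390 in wild-type and to 41009 to 69887 in mutant samples (15 of 15 higher, none at 0 counts in any sample). Testis somatic markers summed to 268 to 640 and to 1301 to 2073 (6 of 8 tested higher, *insl3* at 0 in some wild-type samples), and proliferation markers to 5847 to 6162 and to 782 to 1760 (9 of 10 lower). Mutant replicate 2 stood apart with a liver marker sum of 71115, against 348 and 9480 in mutant replicates 1 and 3. The wild-type replicates 1 to 3 had 149, 62.9 and 1814, so the genotypes overlapped, and 7 of the 8 liver markers did not pass the threshold. In bulk gonads, fewer cells of a type and less RNA per cell cannot be told apart, and the part of tissue composition in the results below was not tested.

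With TMM scaling, 28 of the 45 members that could be tested were lower in mutants, 4 were higher and 13 did not pass the threshold, but with library totals alone 1 was lower and 4 higher, and with upper-quartile factors 2 were lower and 12 higher. Genes were tested with the quasi-likelihood test of edgeR, and p-values were adjusted over all 20091 tested genes by Benjamini and Hochberg's method, with a threshold of 0.05. Over all tested genes, 32% were lower and 37.5% were higher with TMM, 18.6% and 41.1% with library totals, and 19.9% and 49% with upper-quartile factors. All mutant values lay below all wild-type values for 29 members, where 35.4% of all genes did so, and above them for 4, where 39.8% did so. The members' median log2 fold change was -0.66 and that of all tested genes 0.23. Scaling moved both medians together: the median of all genes was 0.18 with DESeq2 size factors, 0.65 with library totals and 0.92 with upper-quartile factors, and the members' median was -0.72, -0.23 and 0.03. Relative to all genes the members were therefore placed alike, with 38 or 39 of 45 members below the median of all genes under each of the scalings. What the scalings change is where 0 lies, so each lower call below is a statement on the TMM scale, and *psmd10* is the one lower member whose call held under every alternative tried. The higher calls of *psma6l*, *psmb13a*, *psmd5* and *psmd11* held under every alternative.

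**Figure D1:**
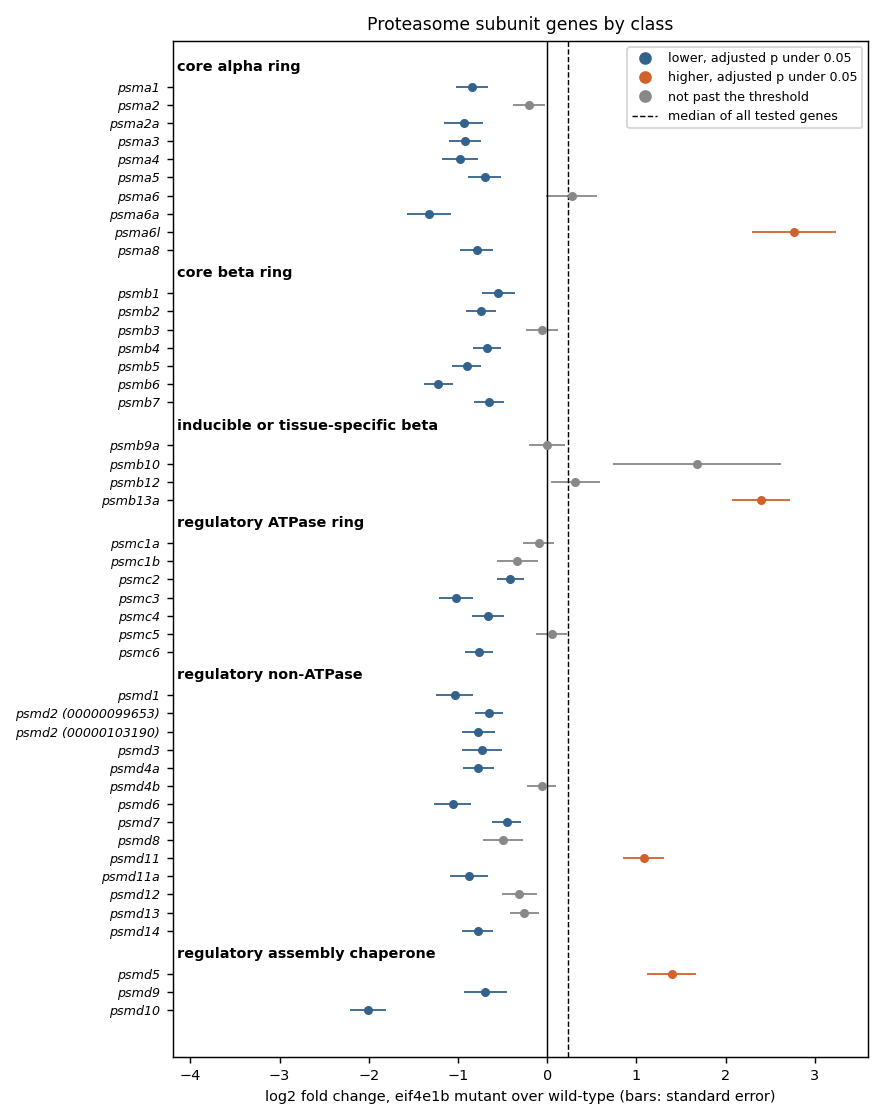
Log2 fold change (mutant over wild-type, TMM scaling, bars are standard errors) of the 45 tested members, grouped by class, with colour giving the call. Most points lie left of the dashed median of all tested genes at 0.23, *psma6l* and *psmb13a* lie furthest right and *psmd10* furthest left; with library totals alone only *psmd10* is called lower, and with upper-quartile factors 2 members are.

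**Figure D2:**
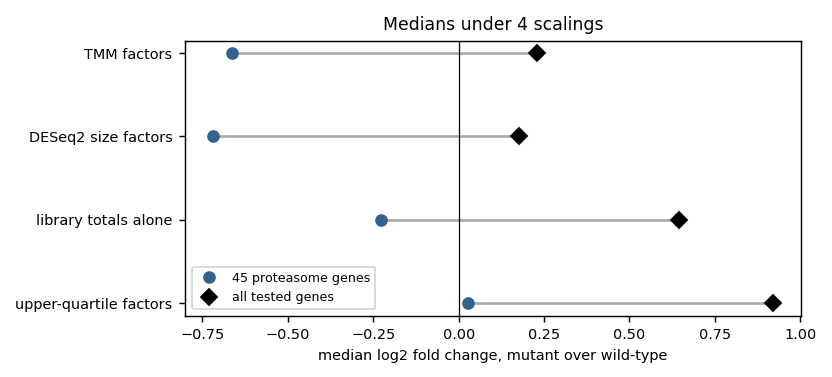
Median log2 fold change (mutant over wild-type) of the 45 tested members (circles) and of all 20091 tested genes (diamonds) under 4 scalings. The members' median moves from -0.72 to 0.03 and the median of all genes from 0.18 to 0.92, while the distance between them stays nearly the same.

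The mean summed level of the core genes was lower in mutants under each of the 4 scalings compared, by amounts that differed widely. That of the regulatory genes was lower under all but upper-quartile factors. The samples of the genotypes overlapped for both sums with library totals and with upper-quartile factors. Summed over the 23 core genes, the level was 1827, 1694 and 1786 TMM-CPM in wild-type samples and 1055, 1057 and 1033 in mutant replicates, so the groups did not overlap (1769 ± 68.1 and 1048 ± 13.2, SD, n = 3). Summed over the 24 regulatory genes, it was 2501, 2272 and 2411 in wild-type and 1512, 1659 and 1584 in mutant replicates, again without overlap (2395 ± 115 and 1585 ± 73.4, SD, n = 3). The means of these sums are 1.69-fold and 1.51-fold lower in mutants with TMM and 1.25-fold and 1.13-fold lower with library totals. With upper-quartile factors they are 1.05-fold lower for the core and 1.07-fold higher for the regulatory particle. With library totals the core sum of mutant replicate 1 (1564) lay above every wild-type sample (1537 to 1563). With upper-quartile factors the core sums were 1350 to 1466 in wild-type and 1283 to 1367 in mutant samples. As a plain share of each library's counts, the 47 genes made up 0.363%, 0.366% and 0.363% in wild-type samples and 0.379%, 0.213% and 0.332% in mutant replicates 1, 2 and 3, where the groups overlap through mutant replicate 1 and where mutant replicate 2 is lowest. The ratio of regulatory to core counts does not depend on scaling: it was 1.37, 1.34 and 1.35 in wild-type and 1.43, 1.57 and 1.53 in mutant replicates, so every mutant value lay above every wild-type value.

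Of the 10 alpha ring genes, 7 were lower, *psma6l* was higher, and *psma2* and *psma6* did not pass the threshold. With TMM, 32% of all tested genes were lower and 37.5% higher, and 35.4% were lower without overlap. The median log2 fold change of the ring was -0.82 with TMM. *psma6a* encodes an alpha ring subunit and had 76.9, 61.7 and 65.9 TMM-CPM in wild-type and 33.1, 19.2 and 29.1 in mutant replicates. The groups were well apart, and the log2 fold change was -1.33 (SE 0.24, adjusted p = 0.0034, from edgeR with the Benjamini-Hochberg method, as for every adjusted p here). *psma3*, another alpha subunit, had 143.6, 160.3 and 157.4 in wild-type and 71.6, 91.1 and 81.0 in mutant replicates (log2 fold change -0.92, SE 0.18, adjusted p = 0.0041). *psma4*, whose tail helps to close the gate of the barrel, had 365.9, 344.9 and 376.4 in wild-type and 186.4, 197.4 and 166.7 in mutant replicates (-0.98, SE 0.20, adjusted p = 0.0051). Neither gene's groups overlapped. The other lower genes, *psma1*, *psma2a*, *psma5* and *psma8*, had log2 fold changes from -0.94 to -0.70. *psma8* is in mammals the testis form of an alpha subunit, but no other gene of the tables bears the symbol *psma7*, and the RefSeq names list that symbol as a synonym of zebrafish *psma8*. It had 261.6, 223.2 and 239.8 in wild-type and 133.6, 138.4 and 146.3 in mutant replicates. The 7 lower calls of the ring were lost with library totals and with upper-quartile factors, and each held when any single sample was left out.

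*psma6l*, a copy of *psma6a*, went the other way. Its level was 4.09, 1.38 and 1.90 TMM-CPM in wild-type and 20.1, 11.9 and 18.3 in mutant replicates, so the lowest mutant sample was several times the highest wild-type one. The log2 fold change was 2.77 (SE 0.47, adjusted p = 0.0026), the largest rise of any member. The third copy, *psma6* (ENSDARG00000013966), had 9.26, 7.93 and 7.61 in wild-type and 8.45, 13.03 and 8.54 in mutant replicates, which overlap (0.27, SE 0.28, adjusted p = 0.41). Of the counts of the trio, *psma6l* made up 4.53%, 1.95% and 2.52% in wild-type and 32.6%, 27.02% and 32.7% in mutant replicates. *psma6a* made up 86.5% ± 1.14 of them in wild-type and 49.7% ± 5.46 in mutant samples (SD, n = 3). The log2 ratio of *psma6a* to *psma6l* within a sample, which needs no scaling, was 4.22, 5.43 and 5.08 in wild-type and 0.72, 0.68 and 0.67 in mutant replicates. The other alpha pair, *psma2* and *psma2a*, shifted less. *psma2* had 40.7, 32.6 and 36.9 in wild-type and 30.2, 29.8 and 35.6 in mutant replicates, which overlap (log2 fold change -0.20, SE 0.18, adjusted p = 0.35), while *psma2a* had 91.0, 65.5 and 62.0 in wild-type and 32.6, 41.6 and 40.0 in mutant replicates, which do not (-0.94, SE 0.22, adjusted p = 0.0084).

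**Figure D3:**
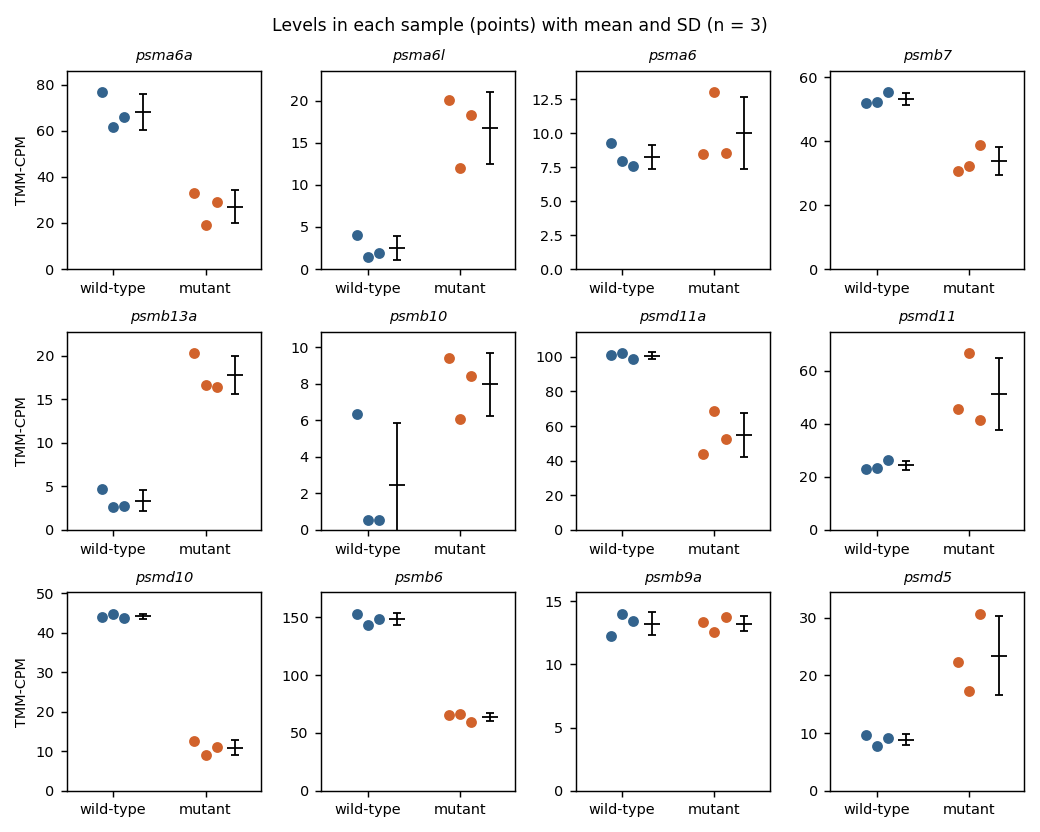
Level (TMM-CPM, linear axes from 0) of 12 members in the 3 wild-type and 3 mutant samples (points), with mean and SD beside them. *psma6a*, *psmb6*, *psmb7*, *psmd11a* and *psmd10* are lower in every mutant sample on this scale (all but *psmd10* lose the call with library totals alone), *psma6l*, *psmb13a*, *psmd11* and *psmd5* are higher under every scaling, *psma6* and *psmb9a* overlap, and wild-type replicate 1 is the high wild-type point of *psmb10*.

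Of the 7 constitutive beta ring genes, 6 were lower and *psmb3* did not pass the threshold. The share of all tested genes that were lower was 32% with TMM, and 35.4% were lower without overlap. The 3 subunits with active sites were all among the lower ones. *psmb6*, which carries the caspase-like site, had 153.1, 142.9 and 148.7 TMM-CPM in wild-type and 65.1, 66.1 and 59.4 in mutant replicates (log2 fold change -1.22, SE 0.16, adjusted p = 0.0010). *psmb5*, which carries the chymotrypsin-like site, had 108.2, 108.9 and 106.9 in wild-type and 63.8, 57.4 and 52.0 in mutant replicates (-0.90, SE 0.16, adjusted p = 0.0033). *psmb7*, which carries the trypsin-like site, had 52.0, 52.3 and 55.4 in wild-type and 30.6, 32.1 and 38.8 in mutant replicates (-0.65, SE 0.17, adjusted p = 0.014). In each of them the samples of a genotype lay close together and the genotypes did not overlap. The structural subunit *psmb2* had 64.6, 63.8 and 76.2 in wild-type and 38.0, 41.3 and 43.0 in mutant replicates (-0.74, SE 0.17, adjusted p = 0.0073). The structural genes *psmb1* and *psmb4* had log2 fold changes of -0.55 and -0.68, and *psmb3* stood at 32.6 ± 3.28 and 31.3 ± 3.43 (SD, n = 3; -0.06, SE 0.18, adjusted p = 0.79). With library totals none of these 6 genes was called, and with upper-quartile factors *psmb6* alone remained lower. Leaving out single samples lost the call of *psmb1* in 5 of 6 fits (adjusted p from 0.012 to 0.10, called only without mutant replicate 2) and that of *psmb7* without wild-type replicate 3 (adjusted p = 0.051).

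None of the 4 tested inducible or tissue-specific beta genes was lower by edgeR, at an unadjusted p under 0.05 (0 genes) or by DESeq2 or limma-voom (0 genes). By edgeR with TMM, 32% of all tested genes were lower and 37.5% higher. *psmb13a*, a fish relative of the inducible subunit that stands in for *psmb7*, had 4.72, 2.58 and 2.77 TMM-CPM in wild-type and 20.3, 16.6 and 16.4 in mutant replicates. The groups were far apart, with a log2 fold change of 2.40 (SE 0.33, adjusted p = 0.0012). *psmb10*, the inducible counterpart of *psmb7*, had 6.36, 0.55 and 0.52 in wild-type and 9.43, 6.05 and 8.40 in mutant replicates. Wild-type replicate 1 lay within the mutant range, and the log2 fold change of 1.68 (SE 0.94, adjusted p = 0.15) did not pass the threshold, whereas without wild-type replicate 1 it was 3.82 and did. *psmb9a*, the inducible counterpart of *psmb6*, had 12.3, 14.01 and 13.4 in wild-type and 13.3, 12.6 and 13.7 in mutant replicates (0.00 ± 0.20, SE, adjusted p = 1.00). *psmb12*, its fish relative, had 12.4, 18.1 and 14.9 in wild-type and 23.9, 14.3 and 18.3 in mutant replicates (0.32, SE 0.27, adjusted p = 0.33). Both overlapped between the groups.

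Relative to the constitutive subunit of the same position, all 4 of these genes had a higher ratio in each of the mutants than in any of the wild-type samples. The constitutive genes *psmb6* and *psmb7*, the only denominators of these 4 ratios, were themselves lower with TMM, which raises each of them. Among all 15 pairs compared below, 10 did not overlap, and the share among other genes was not computed. The log2 ratio of *psmb9a* to *psmb6* was -3.64, -3.35 and -3.47 in wild-type and -2.28, -2.39 and -2.11 in mutant replicates. On the TMM scale its shift of 1.23 between the means restates the fall of *psmb6* (log2 fold change -1.22). There *psmb9a* and *psmb12* did not pass the threshold, and *psmb9a* stayed level. With upper-quartile factors both *psmb9a* (log2 fold change 0.69) and *psmb12* were called higher, so how the shift divides between the genes depends on the scaling. The ratio of *psmb12* to *psmb6* rose by 1.52, that of *psmb13a* to *psmb7* by 3.10 and that of *psmb10* to *psmb7* by 3.27 on the log2 scale between the genotype means, each without overlap. Together, *psmb9a* and *psmb12* made up 16.1% ± 2.22 of the counts of their position in wild-type and 33.4% ± 3.99 in mutant samples (SD, n = 3). *psmb10* and *psmb13a* made up 17.6%, 5.65% and 5.60% of theirs in wild-type and 49.3%, 41.4% and 39.0% in mutant replicates. The summed level of that second trio overlapped between the genotypes on the TMM scale, at 59.09 ± 3.84 in wild-type and 59.6 ± 4.48 in mutant samples (SD, n = 3). Shares of counts are not shares of transcripts, since longer transcripts give more reads.

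Leukocyte markers were higher in mutants, as *psmb13a* was, whereas *psmb9a*, *psmb10* and *psmb12* did not pass the threshold. The summed level of the leukocyte markers was 158, 110 and 38.2 TMM-CPM in wild-type and 374, 352 and 346 in mutant replicates. Of the 10 tested markers, 8 were higher, beside 37.5% of all tested genes. *lyz* was at 0 counts in some samples of each genotype. Wild-type replicate 1, the highest wild-type sample for *psmb10*, *psmb13a* and *psma6l*, was also the highest for leukocyte markers, for testis somatic markers (640, against 268 and 272) and for meiotic prophase markers (375, against 86.0 and 101). It was the highest as well for oocyte markers (13539, against 10829 and 12429), which were lower in mutants. The same held for germ cell, spermatid, ovarian somatic, skeletal muscle, red blood cell and skin markers. It was not the highest for exocrine pancreas, liver or proliferation markers. The same sample was the lowest wild-type one for *psmb9a* (12.3) and *psmb12* (12.4). The part of the cells marked by these lists in the inducible genes was not tested.

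The remaining beta genes, *psmb11* and *psmb11b*, are related to the beta subunit that mammals use in the thymus, and neither passed the filter on low counts. *psmb11* had 0.09, 0.83 and 0.17 TMM-CPM in wild-type and 0.24, 3.26 and 0 in mutant replicates. *psmb11b* had 0, 2.304 and 0.09 in wild-type and 0, 0.78 and 0 in mutant replicates, where a count of 0 allows up to 3 counts. Both overlapped between the genotypes, and their highest values were those of replicate 2 of each genotype. In the RefSeq gene order of the assembly GRCz12tu, used here for names alone, *psmb12* and *psmb9a* are direct neighbours and 1 gene lies between *psmb12* and *psmb13a*.

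**Figure D4:**
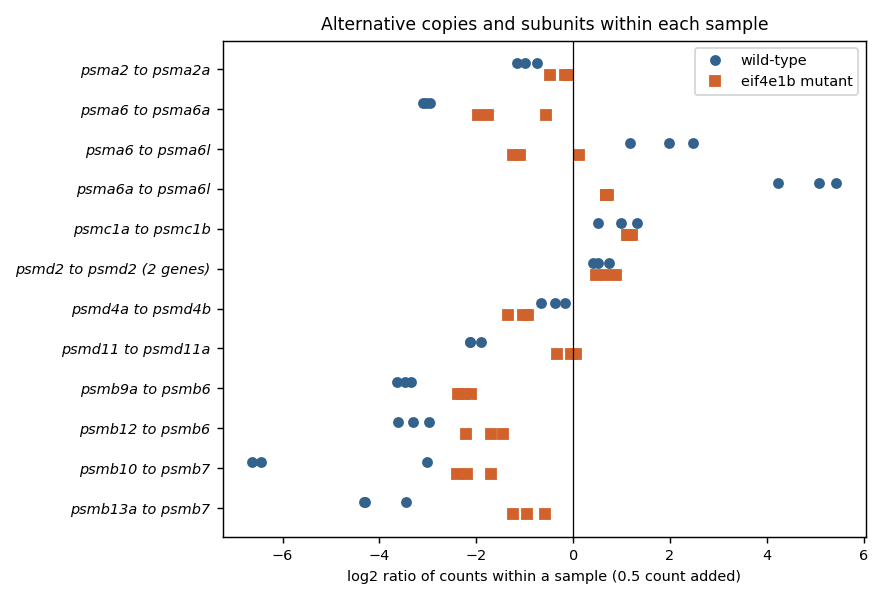
Log2 ratio of counts between alternative copies or subunits within each sample, with 0.5 count added to each, for the 3 wild-type (circles) and 3 mutant (squares) samples. The genotypes separate for *psma6a* to *psma6l*, *psmd11* to *psmd11a* and *psmb13a* to *psmb7*, and they overlap for *psmc1a* to *psmc1b* and for the pair of genes named *psmd2*.

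Of the 7 ATPase ring genes, 4 were lower and 3 did not pass the threshold. Of all tested genes, 32% were lower and 37.5% higher with TMM, and 35.4% were lower without overlap. *psmc3*, an ATPase that unfolds substrates, had 159.8, 132.2 and 147.9 TMM-CPM in wild-type and 66.2, 85.2 and 65.0 in mutant replicates (log2 fold change -1.02, SE 0.19, adjusted p = 0.0037). *psmc6* had 93.6, 87.6 and 93.8 in wild-type and 58.0, 50.6 and 53.4 in mutant replicates (-0.76, SE 0.16, adjusted p = 0.0053), and *psmc4* had 161.4, 162.8 and 169.1 in wild-type and 90.7, 114.3 and 106.5 in mutant replicates (-0.66, SE 0.18, adjusted p = 0.014). None of these groups overlapped. *psmc2* was lower by less (-0.42, SE 0.15, adjusted p = 0.044) and lost its call in 5 of the 6 fits that left out a sample (adjusted p from 0.043 to 0.12, called only without wild-type replicate 1), and *psmc4* lost it without wild-type replicate 3 (adjusted p = 0.057). With library totals *psmc2* alone of the 4 had a log2 fold change above 0, and with upper-quartile factors *psmc2* and *psmc4* had one. *psmc5* stood at 82.1 ± 8.02 in wild-type and 85.1 ± 8.57 in mutant samples (SD, n = 3; log2 fold change 0.05, SE 0.17, adjusted p = 0.81). The copies *psmc1a* and *psmc1b* overlapped between the genotypes, with 64.7, 72.6 and 72.7 against 68.8, 55.4 and 72.0 for the first and 45.7, 29.0 and 36.9 against 29.6, 25.3 and 33.5 for the second (log2 fold changes -0.10 and -0.34). Subunits of the same ring were thus spread out: *psmc3* was 2.03-fold lower in mutants on this scale, while *psmc5* and *psmc1a* overlapped. The difference between these genes was not tested.

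Of the 14 non-ATPase subunits, 9 were lower, *psmd11* was higher and 4 did not pass the threshold. Over all tested genes, 32% were lower and 37.5% higher with TMM, and 35.4% were lower without overlap. *psmd6*, a lid subunit, had 153.3, 102.1 and 126.3 TMM-CPM in wild-type and 56.7, 63.1 and 63.1 in mutant replicates (log2 fold change -1.06, SE 0.20, adjusted p = 0.0041). *psmd1*, a scaffold of the base, had 378.0, 302.9 and 309.7 in wild-type and 153.4, 166.8 and 162.1 in mutant replicates (-1.04, SE 0.20, adjusted p = 0.0044). *psmd14*, the deubiquitinase of the lid, had 86.2, 84.8 and 85.3 in wild-type and 42.2, 54.9 and 52.0 in mutant replicates (-0.78, SE 0.17, adjusted p = 0.0069). All were separated between the genotypes. The other base scaffold is represented by 2 genes that both carry the symbol *psmd2*. ENSDARG00000099653 had 159.2, 156.1 and 158.3 in wild-type and 100.3, 101.6 and 98.7 in mutant replicates, and ENSDARG00000103190 had 119.6, 93.6 and 111.1 in wild-type and 63.3, 55.4 and 71.4 in mutant replicates. They moved by similar amounts, with log2 fold changes of -0.66 and -0.77, and their ratio overlapped between the genotypes. *psmd3* and *psmd7* were lower by 1.66-fold and 1.37-fold, and *psmd8*, *psmd12* and *psmd13* had log2 fold changes from -0.50 to -0.26 that did not pass the threshold. The call of *psmd3* was lost without wild-type replicates 1 or 3 or mutant replicate 1 (adjusted p up to 0.070), and that of *psmd7* in every fit that left out a sample other than mutant replicate 2 (adjusted p up to 0.11).

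Copies of the same lid or receptor subunit did not move together. *psmd11*, which helps to hold the regulatory particle on the core, had 23.2, 23.4 and 26.4 TMM-CPM in wild-type and 45.8, 66.9 and 41.6 in mutant replicates (ENSDARG00000005134, log2 fold change 1.08, SE 0.23, adjusted p = 0.0060). Its copy *psmd11a* had 101.2, 102.4 and 98.6 in wild-type and 43.7, 68.6 and 52.3 in mutant replicates (-0.88, SE 0.21, adjusted p = 0.0093). Both were separated between the genotypes, in opposite directions. *psmd11* thus made up 18.6%, 18.6% and 21.1% of the counts of the pair in wild-type and 51.2%, 49.4% and 44.3% in mutant replicates, and the summed level of the pair was 125 ± 0.731 and 106 ± 25.3 (SD, n = 3). The ubiquitin receptor gene *psmd4a* had 62.9, 54.4 and 63.6 in wild-type and 30.9, 37.7 and 37.5 in mutant replicates (-0.77, SE 0.18, adjusted p = 0.0077), whereas its copy *psmd4b* had 70.4, 86.3 and 82.0 in wild-type and 79.1, 77.6 and 71.6 in mutant replicates, which overlap (-0.06, SE 0.17, adjusted p = 0.74). *psmd4a* made up 43.2% ± 4.29 of the counts of this pair in wild-type and 31.7% ± 3.26 in mutant samples (SD, n = 3).

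Ratios within a sample were compared for 15 pairs of copies or alternative subunits, and 10 of them did not overlap between the genotypes. The share of such pairs among other genes was not computed. Of all single genes, 35.4% were lower and 39.8% higher without overlap on the TMM scale, which is a different measure from a ratio. Whether the count of pairs is particular to these genes was not tested. The exact two-sided permutation test of 3 samples against 3 cannot give a p below 0.1, which each of these 10 pairs reached, so no pair could pass 0.05. The pairs with *psmb11* or *psmb11b*, *psmc1a* to *psmc1b* and the 2 *psmd2* genes overlapped. Reads that match several near-identical copies could be assigned to either of them, and how the counting treated such reads is not given in the sources used here, so the split between copies is less certain than their sum.

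The 3 assembly chaperones of the regulatory particle help to build the base and are not part of the finished complex. With TMM 2 were lower and 1 was higher, beside 32% lower and 37.5% higher of all tested genes. *psmd10*, known in mammals as gankyrin, had 44.1, 44.9 and 43.7 TMM-CPM in wild-type and 12.7, 8.999 and 11.1 in mutant replicates. It was 4.04-fold lower in mutants, with a log2 fold change of -2.01 (SE 0.20, adjusted p = 0.00045), the largest fall of any member and lower also with library totals and upper-quartile factors. *psmd5* had 9.72, 7.83 and 9.08 in wild-type and 22.3, 17.2 and 30.7 in mutant replicates, a rise of 1.397 on the log2 scale (SE 0.27, adjusted p = 0.0044). *psmd9* had 43.8, 30.3 and 30.3 in wild-type and 22.7, 17.2 and 24.7 in mutant replicates (-0.69, SE 0.24, adjusted p = 0.039), a call that was lost without wild-type replicates 1 or 3 or mutant replicates 1 or 2 (adjusted p up to 0.069). No chaperone overlapped between the genotypes. Without overlap, 35.4% of all tested genes were lower and 39.8% higher, so this is no trait particular to the chaperones.

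Genes without these symbols were read from 12 lists, most of genes that act with the proteasome and the rest of other large complexes for comparison. The counts of each list stand beside 32% lower and 37.5% higher over all tested genes with TMM, and no list was tested as a set. Activators cap the core particle in place of the regulatory particle, and 3 of the 5 were higher and 1 lower. *psme1* and *psme2* encode the partner subunits of the interferon-inducible activator. *psme1* had 17.2, 16.4 and 16.0 TMM-CPM in wild-type and 103.8, 97.6 and 97.4 in mutant replicates (log2 fold change 2.59, SE 0.16, adjusted p = 0.00029). *psme2* had 4.72, 2.49 and 2.08 in wild-type and 29.9, 21.3 and 19.3 in mutant replicates (2.92, SE 0.39, adjusted p = 0.0011). *psme3*, which encodes the nuclear activator, went in the opposite direction, from 224.7, 251.4 and 245.5 in wild-type to 72.0, 90.1 and 74.7 in mutant replicates (-1.61, SE 0.19, adjusted p = 0.00075). All 3 were separated between the genotypes, and their calls held under every alternative. *psme4b*, a relative of the activator that mammals need in spermatids, had 49.6, 68.5 and 61.3 in wild-type and 89.0, 81.0 and 104.5 in mutant replicates (0.61, SE 0.20, adjusted p = 0.030), but this call was lost under 9 alternatives, among them leaving out any sample other than mutant replicate 2 (adjusted p from 0.025 to 0.31). Its copy *psme4a* did not pass the threshold (0.80, SE 0.45, adjusted p = 0.15).

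**Figure D5:**
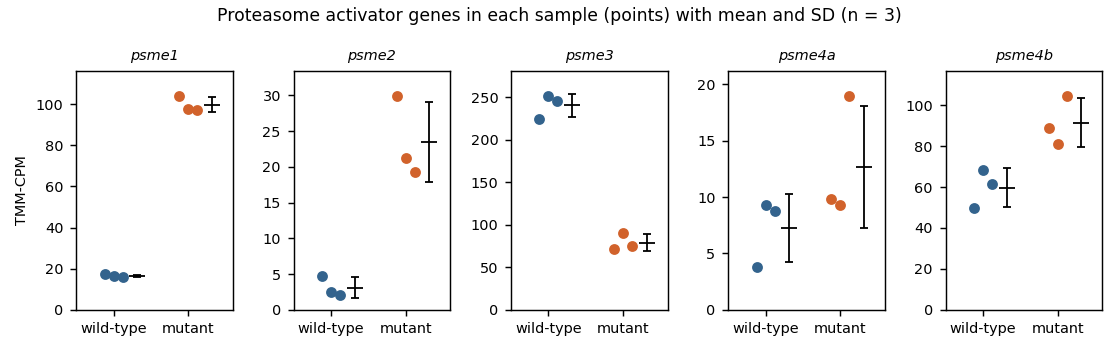
Level (TMM-CPM, linear axes from 0) of the 5 proteasome activator genes in the 3 wild-type and 3 mutant samples (points), with mean and SD beside them. *psme1* and *psme2* are higher and *psme3* is lower in every mutant sample, under every scaling, *psme4b* is higher in every mutant sample on this scale, and for *psme4a* the lowest mutant and highest wild-type samples nearly coincide.

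Among genes that build or complete the complex, the 2 regulatory subunits with other names were both lower. The ubiquitin receptor *adrm1* had a log2 fold change of -1.26 (SE 0.21, adjusted p = 0.0022), a call that held under every alternative, and *sem1*, a small lid subunit, one of -1.44 (SE 0.20, adjusted p = 0.0013), lost with library totals. Of 4 core assembly chaperones, *psmg1* (-0.63) and *psmg2* (-0.71) were lower with TMM but not with library totals, *psmg2* also lost its call without wild-type replicates 2 or 3 or mutant replicates 1 or 3 (adjusted p up to 0.10), and *pomp* and *psmg3* did not pass the threshold. The inhibitor *psmf1* did not pass it either (-0.62, SE 0.24, adjusted p = 0.055, but past it by DESeq2 and limma-voom).

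Of 8 genes for deubiquitinases and other proteins that bind the proteasome, 7 were lower with TMM and *hsp90ab1* did not pass the threshold. *zfand5b*, a relative of a mammalian stimulator of the proteasome, was at 448 ± 33.5 TMM-CPM in wild-type and 31.4 ± 7.22 in mutant samples (SD, n = 3; log2 fold change -3.83, SE 0.27, adjusted p = 0.00029), and its call held under every alternative. *zfand5a* (-1.19) and the adaptor *ecpas* (-1.06) were also lower but lost the call with library totals. Of 8 shuttle factors and parts of the segregase that pulls ubiquitinated proteins from complexes, 4 were lower and 2 higher. *NPLOC4*, a cofactor of the segregase, had a log2 fold change of -1.43 (SE 0.16, adjusted p = 0.00059) that was called under every alternative, *vcp*, the segregase itself, one of -0.86 and the shuttle protease *ddi2* one of -0.70, and the shuttle genes *rad23aa* and *rad23ab* had log2 fold changes of 0.90 and 0.87. The call of *rad23aa* was lost in 4 of the 6 fits that left out a sample (wild-type replicates 2 or 3, mutant replicates 1 or 3, adjusted p up to 0.089), that of *rad23ab* without mutant replicate 3 (adjusted p = 0.081), and that of *vcp* without wild-type replicates 2 or 3 (adjusted p up to 0.064) and with library totals. That of *ddi2* was lost with library totals too, and both *ddi2* and *vcp* lost theirs with upper-quartile factors. Of 7 genes for ubiquitin and its activating enzymes, 3 were higher and 2 lower. The higher ones included *rps27a* (1.17), which encodes ubiquitin fused to a ribosomal protein, and the activating enzyme *UBA6* (0.74), and lower were the polyubiquitin genes *ubc* (-1.90, SE 0.36, adjusted p = 0.0040) and *ubb* (ENSDARG00000002369, -1.52, SE 0.21, adjusted p = 0.0012), both under every alternative. The call of *UBA6* was lost by DESeq2 and without mutant replicate 3 or any single wild-type replicate (adjusted p up to 0.086), and that of *rps27a* without wild-type replicates 2 or 3 (adjusted p up to 0.099).

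Of 9 genes listed for transcription factors that act on proteasome genes, 3 were higher and 4 lower. These counts are near the shares over all tested genes, of which 37.5% were higher and 32% lower. Among the lower ones was *NGLY1* (-0.77, SE 0.23, adjusted p = 0.021), which encodes an enzyme and not a transcription factor. *nfe2l1b*, a homologue of the factor that restores proteasome gene expression in mammals when the protease is inhibited, had 19.1, 22.4 and 17.1 TMM-CPM in wild-type and 92.3, 59.11 and 85.5 in mutant replicates (log2 fold change 2.02, SE 0.24, adjusted p = 0.00071). *nfe2l2a*, which responds to oxidative stress, had 14.2, 6.17 and 6.58 in wild-type and 78.6, 110.0 and 76.4 in mutant replicates (3.30, SE 0.39, adjusted p = 0.00075). Neither overlapped between the genotypes. Another homologue of the first factor, *NFE2L1*, did overlap and did not pass the threshold (-0.32, SE 0.39, adjusted p = 0.48). Genes of the CCAAT-binding factor were split, with one *nfya* gene higher (ENSDARG00000042004, 1.62) and another lower (ENSDARG00000001621, -2.35), and with *nfyc* (-1.63) and *NFYB* (-0.95) lower.

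Genes for class I antigen processing, the pathway served by the inducible subunits, included 8 higher and 2 lower of 17, beside 37.5% and 32% of all tested genes. The other 7 did not pass the threshold. *b2m*, the light chain of class I molecules, had 28.4, 9.03 and 5.62 TMM-CPM in wild-type and 142.9, 86.4 and 129.8 in mutant replicates (log2 fold change 3.06, SE 0.62, adjusted p = 0.0050). Its relative *b2ml* had 47.1, 17.1 and 13.5 in wild-type and 223.6, 233.8 and 238.4 in mutant replicates (3.16, SE 0.50, adjusted p = 0.0020), and *nlrc5*, a regulator of class I genes in mammals, had 3.54, 1.198 and 1.21 in wild-type and 15.7, 13.96 and 25.5 in mutant replicates (3.20, SE 0.53, adjusted p = 0.0023). Wild-type replicate 1 was the highest wild-type sample for each, as it was for *psmb10*, *psmb13a* and *psme2*. It was so too for the leukocyte marker sum and most other marker sums, among them that of oocyte markers. It was also the highest for *irf1a* (7.45, against 2.40 and 1.99), which was lower in mutants, and the lowest for *psmb9a* and *psmb12*. What set this sample apart was not tested. *irf1a* (-2.37) and *mhc1zea* (-0.88) were lower with TMM but not with library totals. *irf1a* had only 12, 3 and 2 counts in mutant replicates 1 to 3, and its copy *irf1b* was higher (1.63, SE 0.44, adjusted p = 0.015). The call of *irf1a* was also lost without wild-type replicate 1 or mutant replicates 2 or 3 (adjusted p up to 0.096). The log2 fold change of *irf1a* ran from -3.43 to -1.57 over the 6 fits that left out a sample.

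Other large complexes were read for comparison from lists of the same kind. With TMM, the COP9 signalosome, a relative of the lid, had 3 lower and 1 higher of 8 genes and a median log2 fold change of -0.25. The translation initiation complex eIF3, which shares the fold of lid subunits, had 4 higher and 0 lower of 17 by edgeR (median 0.40), with 1 lower at an unadjusted p under 0.05, 1 by DESeq2 and 0 by limma-voom. The chaperonin TRiC had 0 of 9 past the threshold by edgeR (median 0.26), 1 higher at an unadjusted p under 0.05, 0 by DESeq2 and 1 higher by limma-voom. The proteasome genes, with 28 of 45 lower and a median of -0.66, had the lowest median of these 4 complexes, and the differences between complexes were not tested.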

How the data were processed

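RNA-seq of 3 wild-type and 3 *eif4e1b* mutant gonad samples was analysed, each holding 3 gonads and prepared as ribosomal RNA-depleted stranded libraries. Reads were aligned to GRCz11 by the authors, who deposited raw counts of 32520 Ensembl genes per sample, without normalization. The submitters' processing notes list Trim Galore 0.5.0, Bowtie2 2.3.4.1, featureCounts, Subread 1.6.2, DESeq2 1.18.1 and R 3.4.1. Which annotation release was used, whether strand was used and how multi-mapping reads were handled is not given in the sources used here. Whether replicates came from separate clutches is not stated, so p-values measure the spread between these samples, and the limits of a count of 0 cover counting error only. Replicates of a genotype differed by more than the sampling noise, so each counted as 1 replicate.

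Genes were named from the study's tables and a table of gene names. Mutant and wild-type samples were compared by the two-sided quasi-likelihood test of edgeR 4.0.16 (R 4.3.3) with TMM factors and edgeR's default filter (minimum count of 10, minimum total of 15), which kept 20091 genes. Benjamini-Hochberg adjustment covered all of these genes, at a threshold of 0.05. The test was checked on simulated counts in which few genes changed, equally in both directions. That check cannot speak to the choice of scaling, since a large share of all genes was called in the data. Other scalings tried were upper-quartile factors, library totals alone, the size factors of DESeq2 and TMM factors without genes of other tissues. Other tests and filters tried were DESeq2 1.42.0 (Wald test), limma-voom (limma 3.58.1), a mean of 10 or more counts, no filter beyond 1 count, a fold minimum of 1 on the log2 scale, leaving out each sample in turn and a block for the replicate number. Log2 ratios of copies used counts plus 0.5 and an exact permutation test.

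Every member could be named. Values in each sample were given for catalytic and inducible beta genes, for genes in a ratio pair, for members that failed the filter, and, by class, for the 3 most significant genes of each direction among those called without overlap. Values of *psma8*, of *psme4b*, of *psme1* to *psme3* and of some transcription factor and class I genes were added after they had been seen. Of the 12 other lists, at most 3 called genes in each direction were named by size of change. *NGLY1*, *irf1b* and further genes that did not pass the threshold were named after their values were seen. The members and the lists were chosen with earlier results of these data known. The result of 1 gene of these lists is not reported here.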

Additional observations from a re-analysis of the deposited data

How the results depend on the processing

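The calls of *psma6l*, *psmb13a*, *psmd5* and *psmd11* (higher) and of *psmd10* (lower) held under every alternative, and the other 27 lower calls were lost under at least one. Scaling had the largest effect. With library totals alone, 3740 of all genes were lower in place of 6437, and 68.8% of all calls were higher in place of 53.9% (71.1% with upper-quartile factors). With library totals, 1 member was lower (0 core and 1 regulatory: 0 alpha ring, 0 beta ring, 0 ATPase ring, 0 non-ATPase and 1 assembly chaperone). The median log2 fold change was then -0.23 in the core and -0.22 in the regulatory particle, and the log2 ratios of the summed levels were -0.32 and -0.18. With upper-quartile factors, 2 members were lower (1 core, in the beta ring, 1 regulatory, an assembly chaperone, and 0 in the alpha ring, the ATPase ring and the non-ATPase group) and 12 higher (7 core: 3 alpha ring, 1 beta ring, 3 inducible; 5 regulatory: 2 ATPase ring, 2 non-ATPase, 1 assembly chaperone). The median log2 fold change was then 0.013 in the core and 0.031 in the regulatory particle, and the log2 ratios of the sums were -0.064 and 0.096. Genes whose log2 fold change turned from below to above 0 with upper-quartile factors were *psma2* (0.49), *psmb1* (0.15), *psmb3* (0.64), *psmb4* (0.013), *psmb7* (0.036), *psmb9a* (0.69), *psmc1a* (0.59), *psmc1b* (0.35), *psmc2* (0.28), *psmc4* (0.027), the *psmd2* gene ENSDARG00000099653 (0.035), *psmd4b* (0.63), *psmd7* (0.24), *psmd8* (0.20), *psmd12* (0.38), *psmd13* (0.43) and *psmg1* (0.065), and with library totals *psma2* (0.24), *psmb3* (0.40), *psmb9a* (0.43), *psmc1a* (0.36), *psmc1b* (0.13), *psmc2* (0.021), *psmd4b* (0.36), *psmd12* (0.067) and *psmd13* (0.16).

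A minimum log2 fold change of 1 in size left 6 lower members (2 core: 1 alpha ring, 1 beta ring; 4 regulatory: 1 ATPase ring, 2 non-ATPase, 1 assembly chaperone), by its own construction. DESeq2's Wald test gave a median of -0.82 in the regulatory particle. Without a filter beyond 1 count, 1 assembly chaperone was lower. With limma-voom 2 inducible beta genes were higher, *psmb10* being the added one. The replicate numbers did not pair the samples, since same-numbered samples had correlated deviations of 0.14, -0.20 and -0.05. With them as a replicate block, 22 members were lower and 5 higher, with 2 inducible beta genes higher, 2 ATPase genes lower and 1 assembly chaperone lower. Leaving out 1 sample at a time gave 21 to 26 lower and 4 to 5 higher members, the lowest without wild-type replicate 3, with 2 to 4 ATPase genes and 1 to 2 assembly chaperones lower and 1 to 2 inducible beta genes higher. Apart from the scalings, the filter, the fold minimum and the number of samples, the cause of these differences was not tested. With 3 samples a genotype, genes at a few TMM-CPM such as *psmb10*, *psmb11* and *psmb11b* were measured from few counts, and their differences have wide errors.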
